A study of Chrysemys picta and Apalone spinifera with 20 samples.

Results

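The 100 genes described here were those whose read counts stood highest in the adrenal-kidney-gonad complexes of turtle embryos, in painted turtles (Chrysemys picta) and in spiny softshell turtles (Apalone spinifera) alike. They were taken from the 12676 genes counted in both species. For every gene and library the count was divided by the 75th percentile of that library's counts and multiplied by 1000, which gives the scaled level used below, and 10 was added before taking log2. The score of a gene in a species was its mean over the 4 complex libraries minus the higher of its means in trunks and in gonads, and the 100 genes with the highest lower score of both species were kept. The members were thus chosen on these levels, so the height of the complexes over trunks and gonads is given as a description and is not tested.

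Each of the 20 libraries was made from 1 pool of RNA, of 10 embryos in Chrysemys and of 5 in Apalone, with 1 library for each species, stage and temperature. Eggs were kept at a constant 26 °C or 31 °C. Whole trunks were taken at stage 9, the complexes at stages 12 and 15 and the gonads alone at stages 19 and 22. Each tissue thus came from its own stages. A difference between tissues, also in the effect of temperature, cannot be told apart from a difference between stages. In Chrysemys, whose sex is set by temperature, 26 °C gives males and 31 °C gives females, while Apalone has sex chromosomes and its pools were of embryos of unknown sex. The 10 groups of each species were therefore trunk, stage 12 complex, stage 15 complex, stage 19 gonad and stage 22 gonad at each temperature, with no treatment other than temperature and no second pool of any group. Library totals ran from 11610098 to 24606646 counts in Chrysemys and from 5544730 to 9501484 in Apalone, whose counts are given on the genes of Chrysemys, so levels are compared within a species only. Within a tissue pair the 26 °C value is given first throughout. Since no group had a second pool, no p-value measures a spread between pools of the same group. In the edgeR tests the spread is how far libraries depart from the fitted stage and temperature terms. Fisher's test reflects the reads of 2 libraries only. In such bulk RNA fewer cells of a type and less RNA per cell cannot be told apart.

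A complex dissected at these stages holds the mesonephros, which is the working kidney of the embryo, the adrenal tissue and the gonadal ridge, and it lies against the dorsal body wall. Neurons of the trunk connect by growing axons, whose shafts are built of microtubules and neurofilaments and whose endings release transmitter through SNARE proteins. Skeletal muscle, tendon and cartilage of the trunk arise from somites and lateral mesoderm, and each passes through its own transcription factors before its structural proteins appear.

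Of the listed genes typical of kidney or adrenal cells, WNT11 alone was in the set. The set held 100 of the 12676 shared genes, so a short list can hold 0 members by that share alone. None of the 15 measured proximal tubule transporters, 22 proximal tubule enzymes, 14 distal tubule and collecting duct genes, 7 podocyte genes, 6 adrenal cortex genes or 9 chromaffin and sympathetic genes was a member, and of 26 genes of nephron patterning only WNT11, a signal made at the tips of the ureteric bud, was. In Chrysemys most of those kidney and adrenal genes stood highest in gonad libraries: 15 of 15 transporters, 20 of 22 enzymes, 13 of 14 distal genes, 7 of 7 podocyte genes, 6 of 6 adrenal cortex genes, 7 of 9 chromaffin genes and 17 of 26 patterning genes had their highest tissue mean there. In Apalone the complexes were the highest tissue for 5 of 15, 7 of 22, 7 of 14, 2 of 7, 2 of 6, 2 of 9 and 9 of 26 of the same lists. Among all shared genes 33.8% in Chrysemys and 27.6% in Apalone had their highest mean in complexes. By contrast 6 of 7 measured neuronal markers were members (GAP43, NEFL, NEFM, SLC17A6, SNAP25 and TUBB3, the seventh being NEUROD1). Of 10 skeletal muscle markers MYOG was a member, and of 6 cartilage markers 0 were. The set is therefore named by its rule, with neuronal genes as its largest group. A symbol was found for 81 members, and grouped by what the named genes are known to do, after the membership was seen, 43 belong to the nervous system, 5 to skeletal muscle, 13 to skeleton, tendon and connective tissue and 20 to other processes, with 19 members without a symbol. How many of all shared genes belong to each of these groups was not counted. Of the 100 genes, 65 were found in a reference annotation, and no adjacent pair of protein-coding genes was among them.

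**Figure D1:**
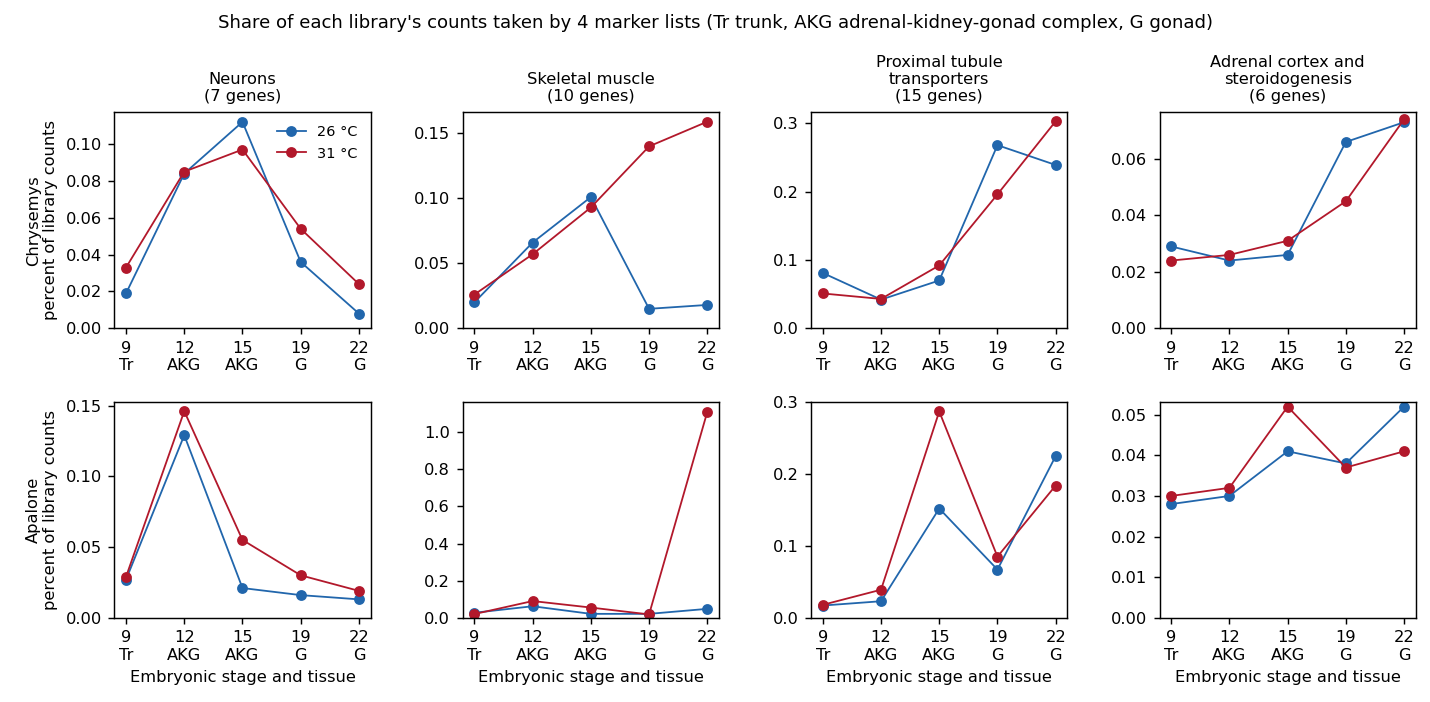
Share of each library's counts (percent, linear axis from 0) taken by 4 marker lists, against stage and tissue, with 1 library per point and Chrysemys above Apalone. The neuronal list peaks in stage 15 complexes of Chrysemys and in stage 12 complexes of Apalone, where the stage 15 complex at 26 °C (0.021%) lies below the trunks (0.027% and 0.029%), while the transporter and adrenal lists are highest in Chrysemys gonads, and the muscle list reaches 1.11% in the Apalone stage 22 gonads at 31 °C.

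The genes with the highest scores were TBX15, a T-box factor of the developing limb and trunk skeleton, LOC101934865, annotated as a glycine-rich protein, SNAP25, a SNARE protein of transmitter release, a gene without a symbol, SPON2, a secreted protein of the extracellular matrix, TNNI1, the troponin I of slow muscle fibres, SCX, the tendon factor scleraxis, ANGPTL1, a secreted angiopoietin-like protein, MYL10, a myosin light chain, and LOC101948281, a long non-coding RNA. Scores of the members ran from 0.67 to 3.72 on the log2 scale in Chrysemys (median 1.33) and from 0.66 to 2.98 in Apalone (median 1.03), against medians of -0.26 and -0.23 over all shared genes. For 70 members the Apalone score was the lower one. The last members inside the limit were LMTK3, a kinase of neurons, CAPNS2, a calpain subunit, and COL27A1, a collagen of cartilage, with a lower score of 0.66 at the last place, and the first genes outside it were ISLR2, also at 0.66, and 2 genes without a symbol. Membership rested in part on the settings of the rule: of the 100 genes 98 were kept with TMM scaling, 77 with a pseudocount of 1, 68 with the mean of both species' scores and 18 with the lowest complex library set against the highest other library.

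Not every complex library was high. The rule used these levels, so an excess of complex libraries over the backgrounds was largely built in and is not tested. Backgrounds are over all shared genes, which were not chosen in this way. In Chrysemys 59 members had every complex library above every trunk and gonad library, as did 7.2% of all shared genes, and in Apalone 17 members did, against 0.852% of all shared genes. The highest library was a stage 15 complex for 92 members in Chrysemys (28 at 26 °C and 64 at 31 °C, background 24.4%). It was a stage 12 complex for 70 members in Apalone (18 and 52, background 16.6%), while 21 members were highest in a stage 15 complex and 9 in the stage 22 gonads at 31 °C.

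Together the 100 genes took a small share of each library. In Chrysemys they made up 0.137% and 0.211% of the counts of the trunks, 0.545% and 0.479% of stage 12 complexes, 0.688% and 0.767% of stage 15 complexes, 0.176% and 0.278% of stage 19 gonads and 0.0937% and 0.176% of stage 22 gonads. In Apalone the shares were 0.133% and 0.136%, 0.483% and 0.539%, 0.177% and 0.316%, 0.127% and 0.160%, and 0.108% and 0.247% in the same order. All 4 Chrysemys complexes and both Apalone stage 12 complexes exceeded every trunk and gonad library of their species, whereas the Apalone stage 15 complex at 26 °C lay below the stage 22 gonads at 31 °C. The 5 members with the most counts in complexes were LOC101934865, TUBB3, NEFM, RND3 and KLHL41.

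**Figure D2:**
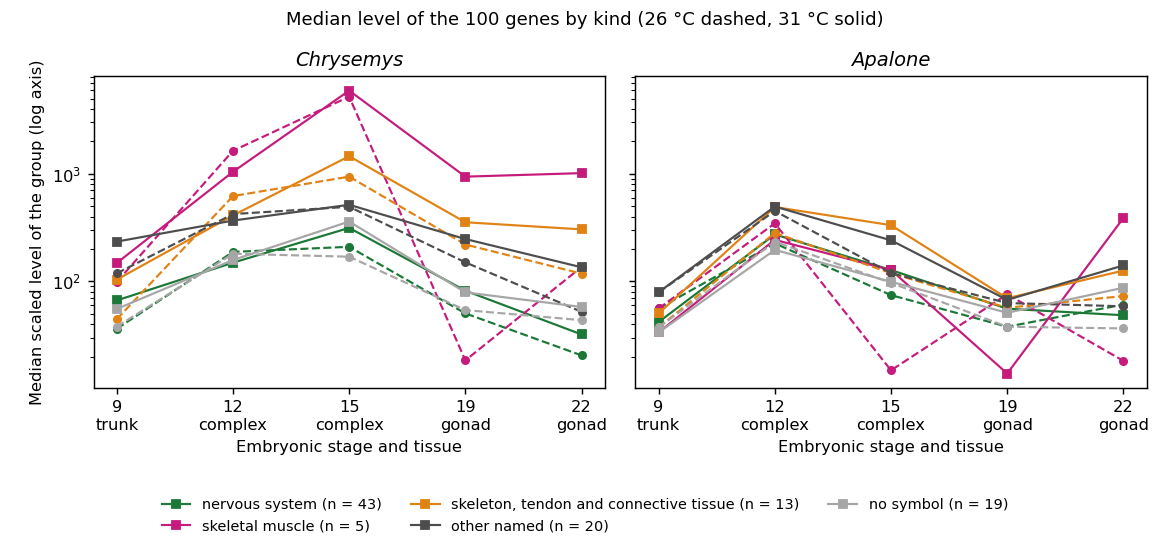
Median scaled level (log axis) of the 43 nervous system, 5 skeletal muscle, 13 skeleton, tendon and connective tissue, 20 other named and 19 unnamed members, against stage and tissue, with 26 °C dashed and 31 °C solid and 1 library per point. Every group peaks at stage 15 in Chrysemys at 31 °C and at stage 12 in Apalone at 26 °C, and the muscle line of Apalone rises again in the stage 22 gonads at 31 °C.

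The nervous system genes covered most steps from neuronal identity to the synapse. SCRT1, MYT1, SKOR2 and ZIC4 are transcriptional regulators of the nervous system, TUBB3, NEFL, NEFM, MAP6, STMN4, CRMP1, TAGLN3 and GAP43 belong to the axon and its growth cone, CDK5R1 and CDK5R2 activate a neuronal kinase, and NYAP2 and LMTK3 take part in kinase signalling in neurons. SNAP25, SYT4 and CADPS serve vesicle release, SLC17A6 loads glutamate into vesicles, and GAD1 makes GABA. GRIN1 and GRIN3A are glutamate receptor subunits, CACNG2 and CNIH2 escort AMPA receptors, KCNS2 and KCNJ9 are potassium channel subunits, and OPRM1, OPRL1 and GPR12 are receptors coupled to G proteins, with GNAO1 and RGS7 downstream of such receptors. CDH8, CNTN4, LRRTM2, IL1RAPL1, LGI1, CA10, OLFM2, OLFM3, NRG3 and TMEFF2 lie on or outside the cell membrane, most of them in adhesion or at synapses. The 43 genes together took 0.147% and 0.151% of the counts of Chrysemys stage 12 complexes and 0.198% and 0.201% at stage 15, against 0.0324% to 0.0944% in the other Chrysemys libraries. In Apalone they took 0.235% and 0.273% at stage 12, 0.0861% and 0.124% at stage 15 and 0.0503% to 0.0852% elsewhere.

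SNAP25 carried the largest score of the neuronal markers. Its scaled level in Chrysemys was 21.5 and 93.1 in trunks, 545 and 369 in stage 12 complexes, 1015 and 1480.0 in stage 15 complexes, 191 and 185 in stage 19 gonads and 15.4 and 98.7 in stage 22 gonads. In Apalone it was 65.4 and 143 in trunks, 1222 and 940.2 in stage 12 complexes, 104 and 177 in stage 15 complexes, 38.0 and 97.7 in stage 19 gonads and 122 and 97.1 in stage 22 gonads. The 4 Chrysemys complexes lay above all other libraries of the species, and in Apalone so did the stage 12 and stage 15 complexes except for the stage 15 complex at 26 °C, which overlapped the trunks and gonads.

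MAP6, which stabilises axonal microtubules, had the lowest adjusted p in the comparison of the species given below. The Chrysemys levels were 129 and 203 in trunks, 655 and 559 in stage 12 complexes, 1037 and 1276 in stage 15 complexes, 387 and 578 in stage 19 gonads and 92.5 and 221 in stage 22 gonads. The Apalone levels were 88.8 and 96.6 in trunks, 729.8 and 786 in stage 12 complexes, 52.2 and 85.1 in stage 15 complexes, 57.0 and 93.0 in stage 19 gonads and 42.7 and 68.0 in stage 22 gonads. In Apalone both stage 12 libraries stood apart, and the stage 15 complexes fell within the range of trunks and gonads. In Chrysemys the stage 15 complexes were the highest 2 libraries, with the 31 °C gonads of stage 19 slightly above the 31 °C complex of stage 12.

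ZIC4, a zinc finger factor of the dorsal neural tube and somites, was nearly absent from gonads. In Chrysemys it stood at 81.0 and 90.3 in trunks, 240.5 and 258 in stage 12 complexes, 247 and 369 in stage 15 complexes, 2.46 and 8.80 in stage 19 gonads and 5.14 and 2.15 in stage 22 gonads. In Apalone it stood at 149.5 and 206 in trunks, 1593 and 1701 in stage 12 complexes, 14.9 and 192 in stage 15 complexes, 6.33 and 4.65 in stage 19 gonads and 12.2 and 9.71 in stage 22 gonads. The Apalone stage 15 complex at 31 °C lay within the range of the trunks. At 26 °C it was about as low as the gonads, on few counts. In Chrysemys the stage 15 complexes were as high as the stage 12 complexes or higher.

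TUBB3, the tubulin of neurons, and the neurofilament subunit NEFM took the most counts of the neuronal members. In Chrysemys TUBB3 stood at 1522 and 2767 in trunks, 6262 and 5806 in stage 12 complexes, 10000.0 and 5762 in stage 15 complexes, 1900.0 and 3361 in stage 19 gonads and 661 and 1560.0 in stage 22 gonads. Its Apalone levels were 1467 and 1429 in trunks, 4935 and 7786 in stage 12 complexes, 828 and 1979 in stage 15 complexes, 430.4 and 1423 in stage 19 gonads and 963 and 1083 in stage 22 gonads. For NEFM the Chrysemys levels were 792 and 1629 in trunks, 4729 and 4823 in stage 12 complexes, 6062 and 4900.0 in stage 15 complexes, 473 and 1487 in stage 19 gonads and 102.8 and 401 in stage 22 gonads. All complexes of Chrysemys exceeded the other libraries for both genes. NEFM in Apalone stood at 2065 and 2282 in trunks, 7778 and 8017 in stage 12 complexes, 1336 and 3057 in stage 15 complexes, 1373 and 628 in stage 19 gonads and 207 and 272 in stage 22 gonads. Of the Apalone stage 15 complexes only the 31 °C library lay above all trunks and gonads for either gene.

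**Figure D3:**
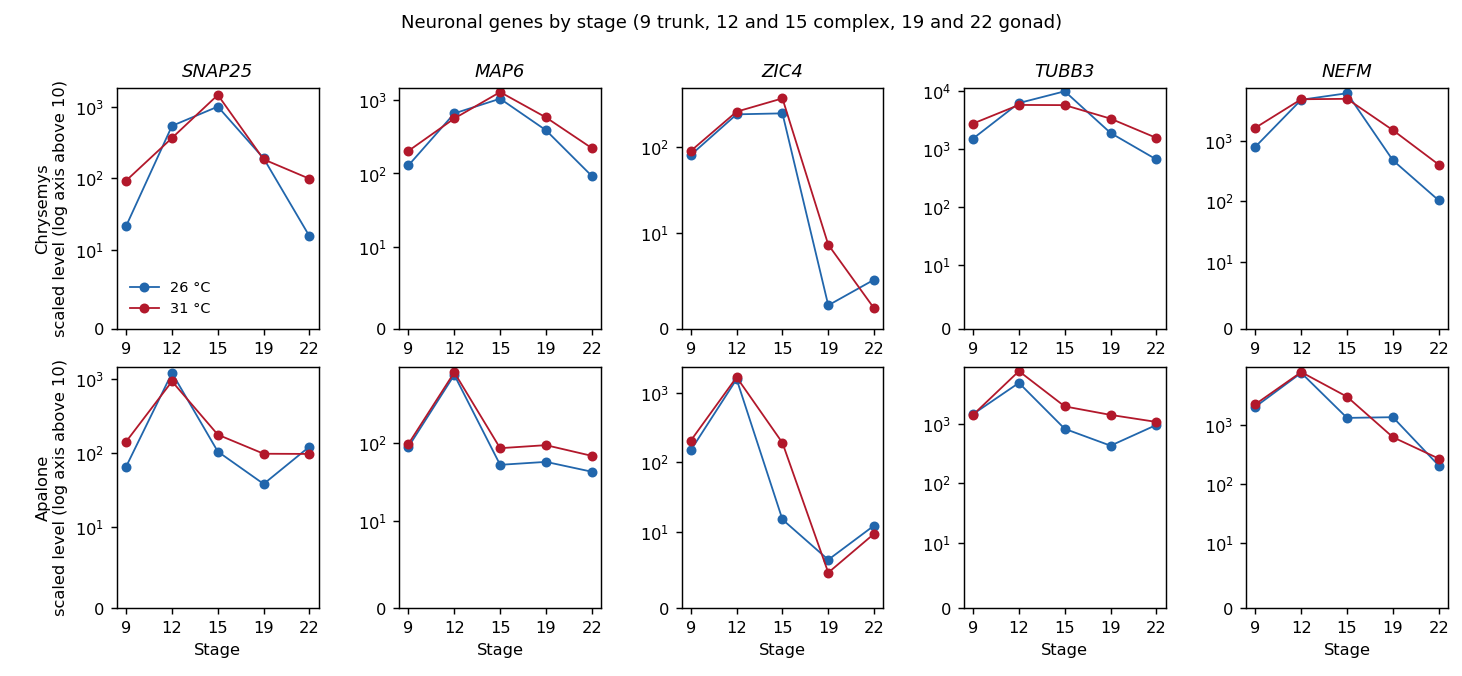
Scaled level (linear below 10, log above) of SNAP25, MAP6, ZIC4, TUBB3 and NEFM against stage, with 1 library per point, 26 °C in blue and 31 °C in red, and Chrysemys above Apalone. In Apalone each gene peaks at stage 12 and is lower at stage 15 at both temperatures, while in Chrysemys the stage 15 level is near or above that of stage 12.

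Further neuronal members also stood high in complexes, in part with overlap between tissues. GAP43, the growth cone protein, stood in Chrysemys at 170.2 and 479 in trunks, 1660.0 and 1554 in stage 12 complexes, 3105 and 3629 in stage 15 complexes, 1534 and 3012 in stage 19 gonads and 293 and 1996 in stage 22 gonads. In Apalone it stood at 575 and 718 in trunks, 4968 and 6321 in stage 12 complexes, 1187 and 3305 in stage 15 complexes, 298 and 1660.0 in stage 19 gonads and 817 and 1223 in stage 22 gonads. The 31 °C gonads of stages 19 and 22 in Chrysemys lay above its stage 12 complexes and below those of stage 15. GRIN1, the obligatory subunit of the NMDA receptor, had levels of 35.7, 45.0, 95.7 and 203 in the Chrysemys complexes and no more than 9.92 in any other Chrysemys library. SKOR2, a corepressor known from Purkinje cells of the mouse, was at 71.0 and 51.5 in the stage 15 complexes of Chrysemys and at or below 2.78 in every other Chrysemys library, stage 12 included. The mu and nociceptin opioid receptors OPRM1 and OPRL1 rested on few counts, with scaled levels of at most 29.9 and 38.5 in Apalone.

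Genes of both main transmitter classes were present. SLC17A6, the vesicular glutamate transporter of the spinal cord and brainstem, stood in Chrysemys complexes at 105, 75.5, 209.9 and 244 and at no more than 32.3 in its other libraries. In Apalone it stood at 65.4 and 58.8 in trunks, 226 and 274 in stage 12 complexes, 29.9 and 128 in stage 15 complexes, 88.6 and 65.1 in stage 19 gonads and 67.1 and 38.8 in stage 22 gonads. The stage 15 complex of Apalone at 26 °C was the lowest of its libraries. GAD1, the enzyme that makes GABA, was at 38.1, 52.2, 86.4 and 100.3 in Chrysemys complexes and at 56.5, 119.7, 0 and 7.09 in those of Apalone, against at most 18.2 and 19.0 in trunks and gonads.

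NEFL and MYT1 showed the Apalone course again. NEFL stood in Apalone at 486 and 601 in trunks, 4032 and 5338 in stage 12 complexes, 955 and 2043 in stage 15 complexes, 791 and 1465 in stage 19 gonads and 335 and 849.5 in stage 22 gonads. In Chrysemys its levels were 89.3 and 362 in trunks, 1207 and 1051 in stage 12 complexes, 2389 and 2011 in stage 15 complexes, 1289 and 1906 in stage 19 gonads and 152 and 536 in stage 22 gonads. The stage 19 gonads of Chrysemys overlapped its complexes. MYT1 stood in Apalone at 355 and 307 in trunks, 1629 and 1953 in stage 12 complexes, 149 and 255 in stage 15 complexes, 50.6 and 237 in stage 19 gonads and 104 and 238 in stage 22 gonads. Its Chrysemys complexes, at 426, 562, 275 and 453, overlapped the stage 19 gonads at 282 and 284.

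From stage 12 to stage 15 the members moved apart between the species. The rule used the mean of both stages and not their difference, but the same libraries chose the members. Backgrounds are over all genes, which were not chosen in this way. The comparison was tested by edgeR's quasi-likelihood test across all genes with temperature as a covariate, as 1 effect over all stages. Fitted with an effect for each tissue, some members passed in Chrysemys and fewer than below in Apalone. Those counts are in the last section. The Apalone complexes held 9501484 and 9451698 counts at stage 12 and 5607172 and 5544730 at stage 15. Those of Chrysemys held 14968992 and 22799214, and 13303650 and 14005804. The part of depth in the change was not tested. In Apalone 22 of 95 members that passed the filter on low counts fell (background 6.84% of 10644 genes) and 0 rose (background 7.92%), with a median log2 change of -1.15 against -0.02 over all genes tested. In Chrysemys 0 of 99 members passed in either direction (background 0%), with a median change of 0.68 against -0.02. There 23 members had an unadjusted p under 0.05 (background 7.43%), all of them higher at stage 15, and DESeq2 called 8. No share over all genes is given for calls by DESeq2, here or below. Counted on levels alone and over all 100 members, 85 were lower at stage 15 than at stage 12 in Apalone at 26 °C and 82 at 31 °C, whereas 84 and 90 were higher in Chrysemys. At both temperatures 78 members were higher in Chrysemys (31.2% of shared genes) and 77 lower in Apalone (36.1%), and 59 did both (7.19%).

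Neuronal genes made up most of the members called lower in Apalone, with 15 of the 40 tested. Estimates were below 0 for 34 of these 40 (median -1.47), and for most members of every other kind. MAP6 fell by 3.49 ± 0.35 on the log2 scale (edgeR adjusted p = 0.00121), MYT1, a zinc finger factor of neuronal differentiation, by 3.21 ± 0.47 (0.00369), ZIC4 by 4.21 ± 0.64 (0.00405) and SNAP25 by 3.01 ± 0.46 (0.0042). NEFL, the light neurofilament subunit, fell by 1.73 ± 0.26, TUBB3 by 2.24 ± 0.37, NEFM by 1.87 ± 0.41 and GAP43 by 1.51 ± 0.44, the last at an edgeR adjusted p of 0.0466. GNAO1, LGI1, LRRTM2, CDK5R1, CADPS, STMN4 and NYAP2 also fell, by 1.13 to 3.54 on the log2 scale. Of the 7 genes of the neuronal marker list, 6 fell in Apalone. All of the list but NEUROD1 are members, so apart from NEUROD1 these are the calls given above. In Chrysemys 0 of the list passed the test, and 6 had a positive estimate. Outside the nervous system, C1QTNF3, a secreted protein of cartilage and fat, fell by 2.29 ± 0.53 and was the only one of 13 skeletal and connective tissue genes to pass. WNT11 fell by 1.45 ± 0.33, HOXC8, a homeobox gene of trunk position, by 1.08 ± 0.29 and the Rab-6B-like gene LOC101948530 by 2.23 ± 0.36, and 3 of 18 unnamed members fell. None of the 5 muscle genes passed, although all 5 estimates were negative (median -2.12).

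In the same Apalone libraries most kidney genes that passed the test rose. Of the proximal tubule transporters 12 of 15 rose from stage 12 to stage 15 (median log2 change 2.62) and 0 fell, and 14 of 22 proximal tubule enzymes rose and 1 fell (median 2.39). Of the distal genes 7 of 14 rose and 0 fell, of the patterning genes 9 of 25 rose and 3 fell, of the podocyte genes 2 of 7 rose and 1 fell, and 0 of 6 adrenal cortex genes passed. In Chrysemys none of these genes passed, but the estimate was above 0 for 14 of 15 transporters (median 1.58) and 20 of 22 enzymes (median 1.22), the same sign as the median of the members there. The liver list, whose genes mark a neighbouring organ, took 0.011% and 0.006% of the counts of the stage 12 complexes and 0.450% and 0.064% of those of stage 15. The part of these other tissues in the decline of the members was not tested. The count of 22 rested on single libraries: it was 1 without the stage 12 complex at 26 °C, 6 without the stage 15 complex at 26 °C and 10 without the stage 12 complex at 31 °C, and 27 at most over the 10 libraries left out in turn.

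**Figure D4:**
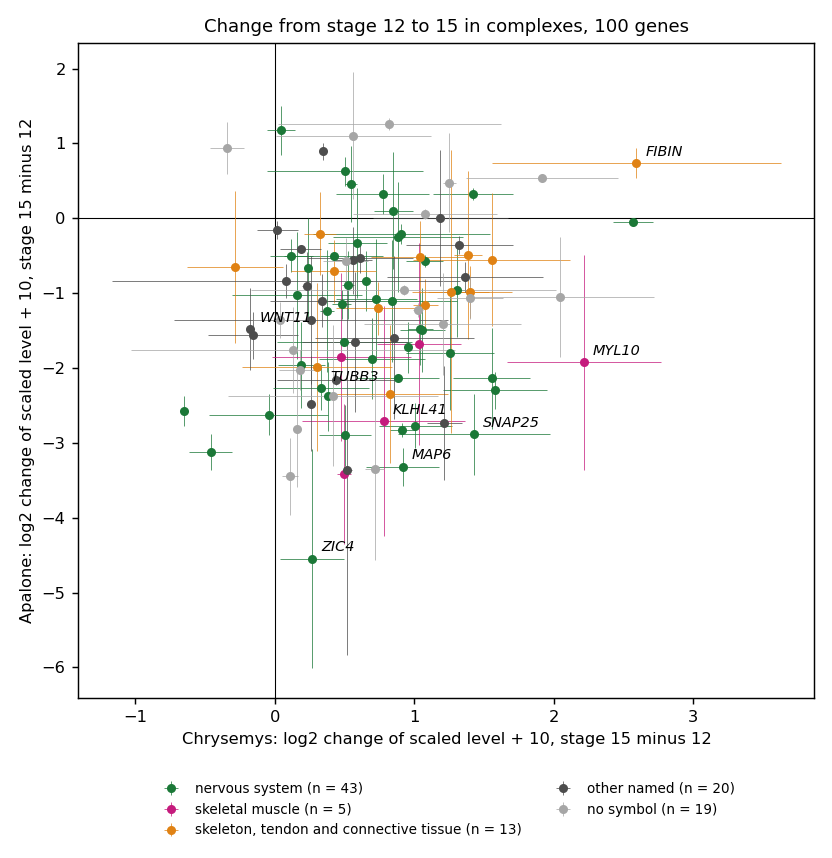
Change of each of the 100 members from stage 12 to stage 15 in complexes, as log2 of the scaled level plus 10, in Chrysemys (x) and Apalone (y). Points are means of both temperatures, bars reach to the value at each temperature, and colours give the kind of gene. Most points lie right of 0 and below 0, with 59 members higher in Chrysemys and lower in Apalone at both temperatures.

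The difference between the species was itself tested. In edgeR's interaction test over both species 5 of 100 members had a lower change in Apalone than in Chrysemys (background 0.380% of 12110 genes) and 0 a higher one (background 0.116%), with a median difference of -2.15 on the log2 scale against -0.04 over all genes. MAP6 differed by -4.44 ± 0.51 (edgeR adjusted p = 0.00373), ZIC4 by -4.57 ± 0.84 (0.0293), SNAP25 by -4.39 ± 0.89 (0.0487) and LOC101948530 by -2.77 ± 0.58 (0.0489), beside 1 member without a symbol. Without an adjustment 56 members had p under 0.05 (background 13.4%), 55 of them with the lower change in Apalone, and DESeq2 called 25. The DESeq2 count has no background beside it and cannot be read as an excess. The count was 0 without the stage 12 complex of Chrysemys at 31 °C or without the stage 15 complex of Apalone at 26 °C, and 12 without either stage 19 gonad library of Apalone. Levels of LOC101948530 in Chrysemys were 66.1 and 51.4 in trunks, 162 and 152 in stage 12 complexes, 164 and 285 in stage 15 complexes, 86.2 and 138 in stage 19 gonads and 84.8 and 79.4 in stage 22 gonads. In Apalone they were 46.7 and 88.2 in trunks, 597 and 722 in stage 12 complexes, 119 and 163 in stage 15 complexes, 88.6 and 163 in stage 19 gonads and 146 and 116 in stage 22 gonads. Both Apalone stage 12 libraries stood apart from all others of the species.

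Within each temperature the direction held for most kinds of gene. In Apalone the median change of the 43 neuronal members was -1.88 at 26 °C and -1.34 at 31 °C, and that of the 20 other named members was -1.41 and -0.54. The 13 skeletal and connective tissue members changed by -1.51 at 26 °C but by -0.04 at 31 °C, where 6 were higher and 7 lower. The 5 muscle members changed by -3.36 and -0.73. In Chrysemys the medians of all 100 members were 0.42 and 0.99.

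The muscle members spanned regulation and contraction. MYOG, or myogenin, drives the differentiation of myoblasts, KLHL41 is a kelch protein needed for the assembly of sarcomeres, MYL10 and TNNI1 belong to the contractile apparatus, and FNDC5 is the precursor of a peptide secreted by muscle. KLHL41 stood in Chrysemys at 582 and 1449 in trunks, 4638 and 4270.0 in stage 12 complexes, 5312 and 11010.0 in stage 15 complexes, 41.9 and 2243 in stage 19 gonads and 136 and 3084 in stage 22 gonads. In Apalone it stood at 561 and 622 in trunks, 2577 and 2350.0 in stage 12 complexes, 127 and 1035 in stage 15 complexes, 386 and 144 in stage 19 gonads and 152 and 7602 in stage 22 gonads. In Chrysemys the complexes exceeded all other libraries, whereas in Apalone the highest library of all was a gonad, at stage 22 and 31 °C.

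MYL10 was again highest in stage 15 complexes of Chrysemys and in a gonad library of Apalone. Its Chrysemys levels were 41.3 and 149 in trunks, 1638 and 1045 in stage 12 complexes, 5210.0 and 7179 in stage 15 complexes, 18.5 and 941 in stage 19 gonads and 141 and 1457 in stage 22 gonads. Its Apalone levels were 234 and 92.4 in trunks, 1698 and 2350.0 in stage 12 complexes, 157 and 1674 in stage 15 complexes, 430.4 and 97.7 in stage 19 gonads and 67.1 and 4583 in stage 22 gonads. The Chrysemys stage 22 gonads at 31 °C exceeded the stage 12 complex at 31 °C. The stage 15 complex of Apalone at 26 °C lay below the trunk and the stage 19 gonads of the same temperature, and the stage 22 gonads at 31 °C were highest.

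TNNI1 and MYOG were near or at 0 in several gonad libraries. The Chrysemys levels of TNNI1 were 184 and 969 in trunks, 4740.0 and 4067 in stage 12 complexes, 6463 and 5935 in stage 15 complexes, 46.8 and 1528 in stage 19 gonads and 195 and 1015 in stage 22 gonads. Those of Apalone were 18.7 and 21.0 in trunks, 347 and 244 in stage 12 complexes, 7.46 and 35.5 in stage 15 complexes, 12.7 and 0 in stage 19 gonads and 0 and 388 in stage 22 gonads. MYOG in Chrysemys stood at 26.4 and 45.8 in trunks, 143 and 149.5 in stage 12 complexes, 244 and 393 in stage 15 complexes, 1.23 and 123 in stage 19 gonads and 7.71 and 53.6 in stage 22 gonads. No gonad library of Chrysemys reached a complex for either gene, but the 26 °C and 31 °C gonads lay far apart. MYOG in Apalone stood at 28.0 and 33.6 in trunks, 194 and 145 in stage 12 complexes, 14.9 and 114 in stage 15 complexes, 0 and 0 in stage 19 gonads and 0 and 345 in stage 22 gonads. FNDC5 ranged from 178 to 360.4 in the complexes of Chrysemys and from 14.9 to 218 in those of Apalone.

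In Chrysemys gonads the muscle members were higher at 31 °C. The rule averaged over temperatures and did not use their difference, but the same libraries chose the members. Backgrounds are over all genes, which were not chosen in this way. The quasi-likelihood test of edgeR was fitted over all 10 libraries of the species with a temperature effect for each tissue. The members tested include some that stood near 0 in gonads and could hardly be called. Of 100 members 19 were higher at 31 °C (background 2.43% of 13152 genes) and 1 was lower (background 0.996%), or 20 in all (background 3.42%), with a median log2 difference of 0.71 against 0.00 over all genes tested. All 5 muscle members were higher at 31 °C, KLHL41 by 5.06 ± 0.39 (edgeR adjusted p = 2.75e-05), MYL10 by 4.36 ± 0.48 (0.000308), TNNI1 by 3.62 ± 0.49 (0.00155), FNDC5 by 2.78 ± 0.43 (0.00367) and MYOG by 4.46 ± 0.72 (0.00471). At both gonad stages the 31 °C library exceeded the 26 °C library for each of them. The skeletal muscle marker list moved with them, with 9 of 10 genes higher and 0 lower, and its summed scaled level was 2301 and 2663 in the 26 °C gonads of stages 19 and 22 but 26144 and 30429 in those at 31 °C. Among these 10 markers only TNNI2, the fast troponin I, did not pass (-0.12, edgeR adjusted p = 0.925). The part of attached muscle in these differences was not tested.

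Connective tissue members followed in part, with 6 of 13 higher and 0 lower. C1QTNF3 was higher by 4.89 ± 0.49 (edgeR adjusted p = 0.000193), TBX15 by 3.32 ± 0.49 (0.0026), SCX by 2.32 ± 0.34 (0.00258) and SFRP2, a secreted inhibitor of Wnt signals, by 1.87 ± 0.26 (0.00208). FIBIN, a secreted protein of the fin bud in fish, and ANGPTL1 were higher by 1.88 ± 0.41 and 1.69 ± 0.34. Cartilage markers outside the set did not share the direction: of 6, 0 were higher and 3 were lower at 31 °C, namely MATN4, a matrilin of cartilage (-4.18 ± 0.55), ACAN, the cartilage proteoglycan aggrecan (-3.96 ± 0.70), and the fibrillar collagen COL11A1 (-2.24 ± 0.56). Of the 43 neuronal members 2 were higher, NEFM by 1.75 ± 0.26 and GAP43 by 1.81 ± 0.39. The adhesion molecule CNTN4 was the 1 that was lower, by -1.53 ± 0.36 (edgeR adjusted p = 0.0367). Neuronal members near 0 in gonads, such as SKOR2 (-2.50 ± 2.65) and ZIC4 (0.52 ± 0.78), could hardly be called. How many of the 43 this concerns was not counted. LOC101934865, SPON2 and NOP10, a component of small nucleolar ribonucleoproteins, were higher by 1.77 ± 0.22, 2.20 ± 0.44 and 1.12 ± 0.24, as were 3 members without a symbol.

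Levels of C1QTNF3 showed the contrast in single libraries. In Chrysemys they were 44.6 and 97.2 in trunks, 705 and 609.6 in stage 12 complexes, 941 and 1458 in stage 15 complexes, 4.92 and 267 in stage 19 gonads and 7.71 and 109 in stage 22 gonads. In Apalone they were 28.0 and 50.4 in trunks, 375 and 589.7 in stage 12 complexes, 29.9 and 213 in stage 15 complexes, 12.7 and 69.8 in stage 19 gonads and 207 and 330.1 in stage 22 gonads. The 26 °C gonads of Chrysemys were the lowest of its libraries. CNTN4, the exception in direction, stood in Chrysemys gonads at 508 and 692 at 26 °C against 273 and 163 at 31 °C, without overlap.

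For 12 members the temperature difference, taken with its sign, was higher in Chrysemys gonads than in complexes (background 0.988% of 13152 genes). By this test of the difference 0 were lower (background 0.365%, and 1.35% in either direction). The sign could turn: SCX had an estimate of -0.83 ± 0.30 in complexes and 2.32 ± 0.34 in gonads. In Apalone 0 members passed that test, with 8 at an unadjusted p under 0.05 (background 4.34%). KLHL41 differed by 4.60 ± 0.48 (edgeR adjusted p = 0.000641), C1QTNF3 by 4.68 ± 0.60 (0.003), MYL10 by 4.45 ± 0.61 (0.00529), TNNI1 by 3.79 ± 0.63 (0.0146) and MYOG by 4.09 ± 0.88 (0.0448). TBX15, SCX, SFRP2, NEFM, LOC101934865 and 2 members without a symbol were the others. The count of 20 called in gonads cannot be checked by leaving out a gonad library, since the gonad effect then rests on 1 pair. With 1 temperature effect fitted over all stages 0 members were called. That effect covers all tissues and is not the gonad effect.

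**Figure D5:**
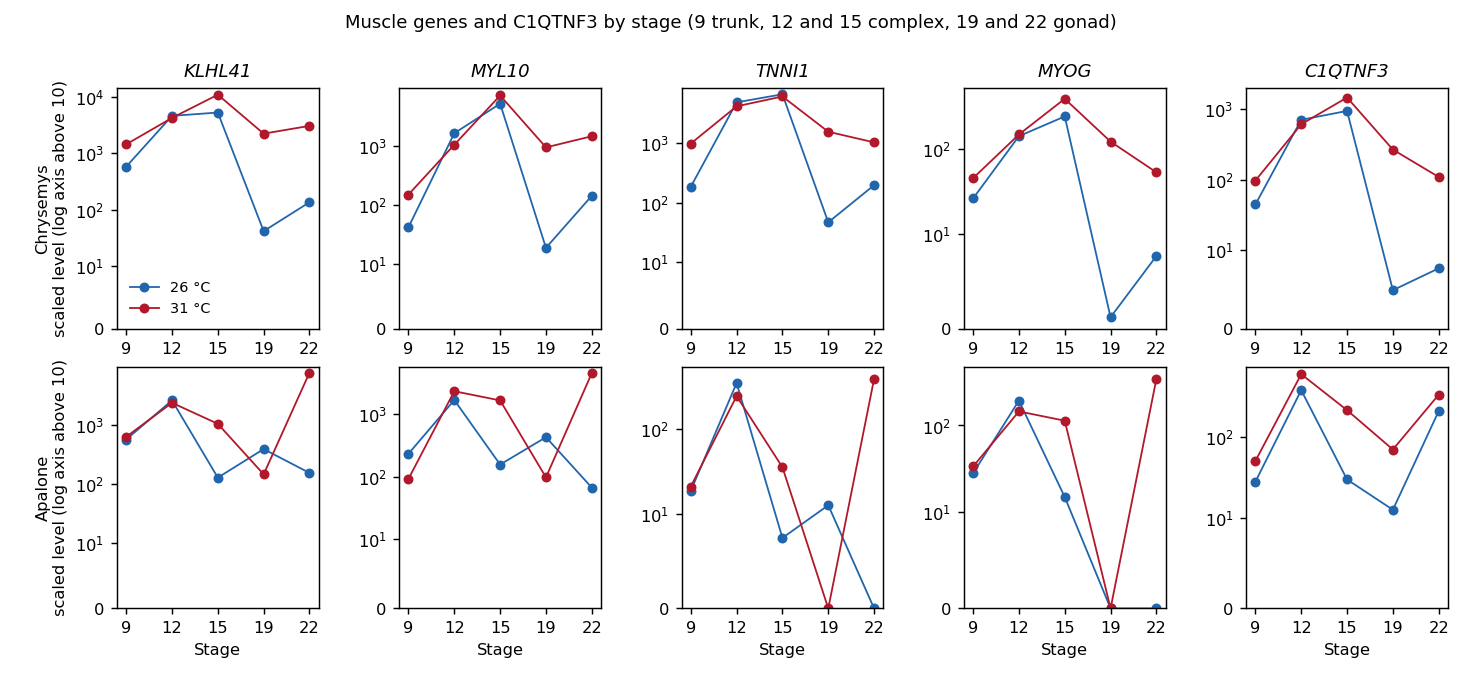
Scaled level (linear below 10, log above) of the muscle genes KLHL41, MYL10, TNNI1 and MYOG and of C1QTNF3 against stage, with 1 library per point, 26 °C in blue and 31 °C in red, and Chrysemys above Apalone. In Chrysemys gonads the 31 °C points lie above the 26 °C points at both stages, and in Apalone the 31 °C gonads of stage 22 stand above those of stage 19.

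In Apalone gonads 0 of 100 members differed between temperatures in edgeR (background 0% higher and 0.00907% lower), with 19 at an unadjusted p under 0.05 (background 16.9%), 5 called by DESeq2 and a median difference of 0.62 against 0.03. SCRT1 and LOC101934865 held no count in any Apalone gonad library and could not be called, and 92 and 96 members held a count in the pairs of stages 19 and 22. The muscle markers rested on 1 library there: their summed level was 4101 and 9299 in the 26 °C gonads and 3154 at stage 19 but 207544 at stage 22 at 31 °C, where KLHL41 stood at 7602. Without that library the log2 ratio of 31 °C over 26 °C in gonads went from 2.09 to -0.72 for KLHL41, from 2.07 to -0.59 for TNNI1 and from 1.93 to -0.77 for MYL10. With single gonad libraries left out, between 0 and 10 members were called, 10 without the stage 19 gonads at 31 °C, 8 without those at 26 °C and 6 without either stage 22 library. In each such fit the gonad effect rested on 1 pair of libraries, so these counts are no measure of stability. Between the species the temperature difference in gonads gave 0 calls among the members, with 14 at an unadjusted p under 0.05 (background 13.4%) and 5 by DESeq2, in a comparison added after the data were seen.

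In the complexes themselves temperature gave 0 calls among the members in edgeR in either species (background 0% in both), and 0 by DESeq2. At an unadjusted p under 0.05 there were 5 members in Chrysemys (background 8.5%) and 10 in Apalone (background 9.12%), all 10 higher at 31 °C. The median log2 difference of the members was 0.05 in Chrysemys against 0.02 over all genes, and 0.59 in Apalone against 0.01, with 84 of 100 estimates above 0. The species difference of this effect gave 0 calls as well, with 8 at an unadjusted p under 0.05 (background 7.45%). Without the stage 19 gonads at either temperature or the 26 °C gonads of stage 22 the Chrysemys count was 3, and without those of stage 22 at 31 °C it was 2.

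Single pairs of libraries differed for many members. Fisher's exact test, two-sided and called at an adjusted p under 1e-10, compares 2 libraries and not 2 temperatures. Counts were taken as deposited, where a read pair appears to add 2, which makes the p-values smaller. With pairs counted once, fewer genes were called in every pair of libraries. Fewer members were then called in all pairs but the Apalone trunks, where none was called either way. In Chrysemys trunks 27 members were higher at 31 °C (background 14.8%) and 0 lower (10.4%), among them TNNI1, NEFL, SNAP25 and TBX15. At stage 12 the Chrysemys complexes had 0 members higher (4.9%) and 9 lower (8.12%), at stage 15 there were 18 higher (8.79%) and 6 lower (9.25%). In Chrysemys gonads 26 were higher (16.3%) and 1 lower (12.3%) at stage 19, and 32 of 97 higher (13.6%) and 1 lower (9.8%) at stage 22. These sizes rest on the upper quartile. With library totals the balance over all genes turned in gonads, to 1250 higher and 3286 lower at stage 19 and 881 and 3111 at stage 22, with 22 members higher and 4 lower, and 22 and 1. It also turned in trunks (1014 and 2816, members 19 and 0), at stage 12 (1141 and 705, members 3 and 8) and at stage 15 (1611 and 851, members 24 and 3), and with TMM at stage 12 (884 and 876, members 2 and 8) and stage 19 (1823 and 2276, members 25 and 3). The median log2 ratio of 31 °C over 26 °C of the members was 0.60 in trunks, -0.15 and 0.27 in complexes and 0.43 and 0.83 in gonads.

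The Apalone pairs were tested in the same way. In trunks 0 of 95 members were called in either direction (backgrounds 2.14% higher and 2.39% lower). At an adjusted p under 0.05 there were 20, with 12 higher and 8 lower. Over all 11683 genes tested, 1782 were higher and 1735 lower at that threshold. At stage 12 there were 8 members higher at 31 °C (3.26%) and 0 lower (2.11%), and at stage 15 there were 16 higher (3.68%) and 0 lower (4.81%). At stage 19 there were 10 of 92 higher (4.83%) and 4 lower (6.38%), and at stage 22 there were 15 of 96 higher (4.71%) and 0 lower (6.38%). With library totals the balance over all genes turned at stage 12 (268 higher and 401 lower, members 5 and 0), at stage 15 (586 and 419, members 18 and 0) and at stage 19 (831 and 564, members 13 and 3), and with TMM in trunks (301 and 246, members 0 and 0). MYL10, NEFL, TUBB3, GAP43 and STMN4, a neuronal microtubule regulator, were higher at 31 °C at stages 12 and 15 alike, STMN4 with log2 ratios of 0.87 and 1.84. LOC101934865 and NOP10 were lower at both stages in Chrysemys, the former with ratios of -0.75 and -0.68. In the Apalone stage 15 complexes LOC101934865 was at 0 and 355, the collagen COL9A2 at 29.9 and 709 and the neural and mesodermal factor EBF3 at 410.4 and 2284.

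The connective tissue members otherwise followed the set. TBX15 ranged from 147 to 343 in Chrysemys complexes and stood at 6.61 and 51.4 in its trunks, 7.39 and 123 in stage 19 gonads and 12.8 and 79.4 in stage 22 gonads. In Apalone it stood at 32.7 and 42.0 in trunks, 479.8 and 637 in stage 12 complexes, 157 and 348 in stage 15 complexes, 12.7 and 4.65 in stage 19 gonads and 6.10 and 704 in stage 22 gonads. As with the muscle genes the Apalone gonads of stage 22 at 31 °C were highest of all. SCX ranged from 192 to 914 in Chrysemys complexes and from 22.4 to 115 in 3 of the Apalone complexes, with 184 in the stage 15 complex at 31 °C. ANGPTL1 stood in Apalone at 93.5 and 156 in trunks, 444 and 718 in stage 12 complexes, 157 and 908 in stage 15 complexes, 57.0 and 69.8 in stage 19 gonads and 85.4 and 301 in stage 22 gonads. Of the Apalone complexes only that of stage 15 at 26 °C overlapped the other tissues. FIBIN reached 5201 in the stage 15 complex of Chrysemys at 31 °C against 411 at stage 12, and 582 against 299 in Apalone, so that it was higher at stage 15 than at stage 12 in both species. TWIST2, a factor of dermis and bone, PCDH18, a protocadherin, PTX3, a pentraxin of the matrix, SHOX, a homeobox gene of limb growth, KERA, a proteoglycan of cornea and tendon, and the cartilage collagens COL9A2 and COL27A1 complete the group, and KERA in Chrysemys was highest in a gonad library, at 908 in stage 22 at 31 °C against 295 to 713 in complexes.

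Among the other named members were regulators of trunk position and of mesoderm. HOXA5 and HOXC8 are homeobox genes of the trunk axis, EBF2 and EBF3 are factors of neuronal and mesenchymal precursors, and MAB21L1 is needed for eye development in the mouse. HOXC8 stood in Chrysemys at 283 and 309.7 in trunks, 579 and 563 in stage 12 complexes, 565 and 932 in stage 15 complexes, 175 and 243 in stage 19 gonads and 97.7 and 161 in stage 22 gonads. In Apalone it stood at 505 and 789.9 in trunks, 1524 and 1893 in stage 12 complexes, 552 and 1121 in stage 15 complexes, 753 and 628 in stage 19 gonads and 262 and 374 in stage 22 gonads. EBF3 stood in Apalone at 925 and 1118 in trunks, 2694 and 3248 in stage 12 complexes, 410.4 and 2284 in stage 15 complexes, 120.3 and 363 in stage 19 gonads and 177 and 529 in stage 22 gonads. There the stage 15 complex at 26 °C lay below both trunks, and that at 31 °C above them. WNT11 stood in Chrysemys at 203 and 444 in trunks, 1390.0 and 1225 in stage 12 complexes, 1222 and 1089 in stage 15 complexes, 774 and 1141 in stage 19 gonads and 269.9 and 729.6 in stage 22 gonads. Its Apalone levels were 126 and 172 in trunks, 1250.0 and 1064 in stage 12 complexes, 298 and 553 in stage 15 complexes, 323 and 237 in stage 19 gonads and 244 and 223 in stage 22 gonads. Both Apalone stage 12 complexes exceeded every other Apalone library for WNT11, and the stage 19 gonads of Chrysemys at 31 °C overlapped its complexes. SPON2 stood in Apalone at 84.1 and 101 in trunks, 1452 and 1312 in stage 12 complexes, 119 and 326 in stage 15 complexes, 50.6 and 32.6 in stage 19 gonads and 36.6 and 1437 in stage 22 gonads. Its stage 22 gonads at 31 °C were about as high as the stage 12 complexes. LOC101934865, which took more counts than any other member in Chrysemys complexes, stood in Chrysemys at 2374 and 6165 in trunks, 26270.0 and 15630.0 in stage 12 complexes, 36810.0 and 22940.0 in stage 15 complexes, 1690.0 and 6270.0 in stage 19 gonads and 465 and 1543 in stage 22 gonads. In Apalone it was at 42.1 and 33.6 in trunks and 560.5 and 671 in stage 12 complexes, and no gonad library held a count. The group also held RND3, a small GTPase, AMER3, which binds the APC protein, CHST8, a sulfotransferase, PTGIS, the prostacyclin synthase, RGCC, a regulator of the cell cycle, GJA5, a connexin of vessels and heart, CAPNS2 and NOP10, with the annotated RERG-like gene LOC101945527 and the CNKSR2-like gene LOC101942787. The 19 members without a symbol took the same course, with median levels of 181 and 158 in stage 12 and 169.8 and 360.4 in stage 15 complexes of Chrysemys against 38.0 to 79.2 elsewhere.

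Between the gonad stages 19 and 22 no member passed edgeR's test in either species (background 0% in both). At an unadjusted p under 0.05 there were 27 members in Chrysemys (background 7.76%), all lower at stage 22, and 23 in Apalone (background 10.4%), 14 higher and 9 lower, and DESeq2 called 9 and 5. The median log2 difference of the members was -0.72 in Chrysemys against 0.03 over all genes, and 0.09 in Apalone against -0.01. In Chrysemys 38 of the 42 neuronal members tested had a lower estimate at stage 22. Of the 43 neuronal members 42 and 40 had any count in the stage 19 gonads of Chrysemys at 26 °C and 31 °C, and 36 and 37 in those of stage 22. In the same order these libraries held 24606646, 12700820, 11610098 and 17869910 counts. Over all genes 13609, 13339, 13193 and 13409 had a count in them. The part of depth in the detection of members was not tested. The count was 8 without the stage 22 gonads of Chrysemys at 31 °C, and 6, 3 and 1 without the Apalone libraries of stage 22 at 26 °C, stage 19 at 31 °C and stage 22 at 31 °C.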

How the data were processed

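RNA was sequenced from 20 pools of Chrysemys and Apalone trunks, adrenal-kidney-gonad complexes and gonads, grouped by species, tissue, stage and temperature as the labels give them. The submitters' processing notes name Trimmomatic 0.27 and HTSeq. The authors placed the reads of both species with GSNAP on genes of the Chrysemys genome (3.0.1) and ran HTSeq unstranded, and the deposited values are raw counts. Their methods describe genome-guided and de novo assemblies. The paper states that the analyses it reports rest on the de novo ones. For the deposited counts themselves this is not stated outright. The authors found genome-guided placement poor for Apalone and set that approach aside. Since the Apalone counts are given on genes of Chrysemys, they may still miss diverged genes. Of 266180 values 0 were odd, so that a read pair appears to add 2. Columns of no sample numbered 0. Neither gene lengths nor sequences were used here.

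Members were found by the rule in the opening. The members, the gene lists and the tests were chosen with earlier results of these data known. Counts were fitted with edgeR 4.0.16 in R 4.3.3 (TMM scaling, filterByExpr, quasi-likelihood test, Benjamini-Hochberg adjustment over all genes kept, called under 0.05), with 2 residual degrees of freedom for temperature per tissue and 4 for stages. ± gives the standard error of a log2 fold change, |log2 fold change| divided by the square root of F. Fisher's exact tests (scipy 1.17.1) took each count against the upper-quartile effective library size, over genes counted in either library of the pair. Alternatives were DESeq2 1.42.0, other scalings, no filter, pairs counted once, other terms for temperature, and each library left out. Scripts were tested on simulated data.

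Named genes were the 10 of highest score, those ranked 98 to 103, members of marker lists, up to 5 per edgeR test and direction of lowest adjusted p, up to 5 per species and direction called by Fisher at stages 12 and 15, and the 5 with the most counts in complexes. All others were named after their values were seen, for their role. 1 member is counted in the totals and not reported here by name. Symbols came from the files, the paper and a reference table (assembly ASM1138683v2, names only). Depth sets the precision: at these totals 1 read pair is worth less than a scaled level of 10.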

Additional observations from a re-analysis of the deposited data

Results flagged for a closer look

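In 4 members with a symbol the change from stage 12 to stage 15 of the complexes differed between Apalone and Chrysemys by edgeR's interaction test, by -4.44 on the log2 scale for MAP6, -4.57 for ZIC4, -4.39 for SNAP25 and -2.77 for LOC101948530. With each of the 20 libraries left out in turn the call was lost in 2 fits for MAP6, 7 for ZIC4, 12 for SNAP25 and 16 for LOC101948530. In each the Apalone level fell and the Chrysemys estimate was above 0. In 10 members with a symbol the difference of 31 °C over 26 °C, with its sign, was higher in Chrysemys gonads than in its complexes. The test of that difference gave 4.60 for KLHL41, 4.68 for C1QTNF3, 4.45 for MYL10, 4.09 for MYOG and 3.79 for TNNI1. It gave 3.77 for TBX15, 3.15 for SCX, 2.48 for LOC101934865, 1.98 for SFRP2 and 1.89 for NEFM. No group had more than 1 library, so single samples could not be set against others of their group.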

How the results depend on the processing

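Without the Apalone stage 22 gonads at 31 °C the log2 ratio of 31 °C over 26 °C in Apalone gonads changed sign for 4 muscle members, from 2.09 to -0.72 for KLHL41, 2.07 to -0.59 for TNNI1, 1.93 to -0.77 for MYL10 and 0.63 to -1.04 for FNDC5. No fold change of a named gene called by edgeR changed sign. The labels give no replicate numbers, and the temperature fits held stage as a term, so temperature was compared within stages. With 1 temperature effect over all stages, which covers all tissues and is not the gonad effect, 0 Chrysemys members were called. In temperature fits that leave out 1 complex or gonad library, the effect in that tissue rests on 1 pair. Their spread then comes from the other tissue alone, so counts of those fits are no measure of stability. DESeq2 called 8 members for stage 15 against 12 in Chrysemys, 9 and 5 for gonad stage 22 against 19 in Chrysemys and Apalone, 5 for temperature in Apalone gonads, 25 for the species difference of the stage change and 5 for that of temperature in gonads. The share of all genes that DESeq2 called is not given. Nor is it given, here or above, for edgeR fits with other settings or with a library left out. Such counts of members cannot be read as an excess. A temperature effect for each tissue gave 8 and 14 for stage 15 against 12 in Chrysemys and Apalone and 6 for stage 22 against 19 in Chrysemys, no filter gave 1 for stage 22 against 19 in Apalone, and upper-quartile scaling gave 3 for the species difference. Leaving out single libraries gave 0 to 3 (Chrysemys) and 0 to 0 (Apalone) for temperature in complexes, 19 to 39 and 0 to 10 for temperature in gonads, 0 to 2 and 1 to 27 for stage 15 against 12, 0 to 8 and 0 to 6 for stage 22 against 19, and 0 to 12 for the species difference of the stage change. For stage 15 against 12 in Chrysemys the count was 1 without the stage 12 complex at 26 °C and 2 without either stage 22 gonad library. For the species difference it was 1 without the 26 °C Chrysemys complex of stage 12 or of stage 15 or without either Apalone stage 12 complex, 3 without the 31 °C Chrysemys complex of stage 15 or either Chrysemys stage 19 gonad library, and 11 without the 31 °C Apalone complex of stage 15. Counting read pairs once in Fisher's test gave 15, 14 and 21 calls at stages 9, 15 and 22 of Chrysemys and 2 and 6 at stages 12 and 19 of Apalone, and library totals gave 5 at stage 12 of Apalone. At an adjusted p under 0.05 there were 60, 43, 68, 62 and 64 calls at stages 9 to 22 of Chrysemys and 20, 49, 67, 46 and 43 of Apalone. The calls over all genes, higher and lower at 31 °C, were 4451 and 3730 of 13698 at Chrysemys stage 9. They were 3144 and 3446 of 13725 at stage 12, and 3974 and 3580 of 13601 at stage 15. At stages 19 and 22 they were 4731 and 4037 of 13753, and 4465 and 3713 of 13640. In Apalone they were 1782 and 1735 of 11683 at stage 9, and 2382 and 1587 of 11919 at stage 12. At stages 15, 19 and 22 they were 2274 and 2471 of 11721, 2658 and 2616 of 11940, and 2574 and 2777 of 11999. With the lowest complex library set against the highest other library, 18 of the 100 members were kept. Without the 5 members with the most counts the members took a mean of 0.110% of the counts of Chrysemys trunks, 0.358% of its complexes and 0.0971% of Apalone trunks. In all of these the cause was not tested. Promoter motifs were not run. Apalone depth limits members of few counts, and genes at 0 in gonads bear no fold.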
